A study of Mus musculus with 6 samples.

Results

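The genes described here are the transporters of amino acids and their close relatives in sorted mouse AT2 (alveolar type II) cells, which make surfactant and renew the lung alveolus. They were chosen by symbol alone, as every member of the solute carrier families Slc1, Slc3, Slc6, Slc7, Slc36, Slc38 and Slc43 with 10 or more counts summed over the 6 RNA-seq libraries. Of 59 such symbols, 38 met the count minimum, out of 23337 gene symbols in all and 15513 with that many counts. The other 21 symbols had 0 to 9 counts in sum, with Slc38a5 the highest. The label fits most but not all of them, because the Slc6 family also carries taurine, creatine and neurotransmitters, and Slc43a3 moves nucleobases.

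All 6 libraries came from Tomato+ AT2 cells that were sorted 10 days after acute lung injury with Pseudomonas aeruginosa (PA). The 3 mutant libraries had the genotype SpC-CreER/Dlk1flox/ROSA-Tomato and the 3 wild-type libraries SpC-CreER/ROSA-Tomato, so both groups carried the inducible Cre driven by the surfactant protein C promoter, the red reporter and the injury. The labels also mention 8 days of culture, and whether the sequenced cells were cultured is not settled by them. The labels used here give no strain, age or sex and do not say whether each library was 1 animal. A p-value below therefore reflects only how these samples vary, which may be technical. Excision of Dlk1 is limited to cells with an active surfactant protein C promoter, and the counts per gene did not check it: Dlk1 had at most 2 counts in any library of either group, under the 3 counts that a zero allows.

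Amino acid transporters set how fast a cell can take up the building blocks of protein, the cysteine and glycine of glutathione, and glutamine. Many work as exchangers: an accumulative transporter such as SNAT2, the product of Slc38a2, loads the cell with small neutral amino acids, which LAT1, the product of Slc7a5, then trades for leucine and other large ones. The light chains of the Slc7 family reach the cell surface only when joined to a heavy chain of the Slc3 family. When amino acids run short, the transcription factor ATF4 raises the transcription of several of these genes together with those of amino acid synthesis.

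Library totals ran from 22511461 to 30695994 counts. The summed level of 12 AT2 markers was 138182 to 152731 CPM (counts per 1e6 of the library total) in the mutant and 149645 to 174122 CPM in the wild-type libraries. AT2 transcripts were thus abundant in all 6, which does not measure the purity of the sort. Markers of AT1 (alveolar type I) cells, 8 in number, summed to 2976 to 3500 CPM, with mutant 1 at 3191 CPM. Mutant 1 stood apart in markers of several other cell types. All 6 club cell markers, all 5 leukocyte markers, all 6 lymphocyte markers, all 6 fibroblast markers and all 5 endothelial markers were higher there than in each other library, and 5 of the 6 macrophage markers measured were. Its leukocyte markers summed to 421 CPM against 4.86 to 23.7 CPM in the others, its endothelial markers to 72.1 CPM against 5.41 to 8.15 CPM, and its club cell markers to 8863 CPM against 486 to 794 CPM. Of the erythroid markers, Hba-a1, Hba-a2, Hbb-b1 and Hbb-b2 were at 0 in all libraries, as was the basal cell marker Krt14. The erythroid markers still summed to 32.7 CPM in mutant 1 against 0.079 to 0.882 CPM in the others, all from the remaining marker. Values that rest on mutant 1 are given with and without it. Fewer cells of a type and less RNA per cell cannot be told apart in such bulk samples.

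The transporter genes summed to between 2055 and 2558 CPM per library, or 0.206% to 0.256% of all counts. No transporter gene passed the threshold when mutant and wild-type cells were compared. The 8 most counted members, Slc38a2, Slc6a6, Slc43a2, Slc1a5, Slc3a2, Slc38a10, Slc6a14 and Slc6a9, held 78.5% to 85.3% of these counts. Levels below are in CPM normalised by TMM, a scaling factor per library that evens out differences in composition. Adjusted for exon length, Slc1a5, the sodium-dependent exchanger of glutamine and other neutral amino acids, ranked first with a level of 96.1 CPM per kilobase over the 6 libraries. Slc38a2 followed at 87.2 and the heavy chain gene Slc3a2 at 72.02 CPM per kilobase. The taurine transporter gene Slc6a6 (46.6) and Slc6a14 (46.4), which encodes a broad carrier of neutral and cationic amino acids found in airway epithelium, came next on the same scale. Slc43a2, the gene of the facilitative large neutral amino acid carrier LAT4, stood at 36.9, Slc38a10 at 29.5 and the glycine transporter gene Slc6a9 at 29.2 CPM per kilobase. The ranges over the 6 libraries overlapped between neighbours in this order, except between Slc3a2 (58.0 to 82.6 CPM per kilobase) and Slc6a6 (39.1 to 54.6).

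**Figure D1:**
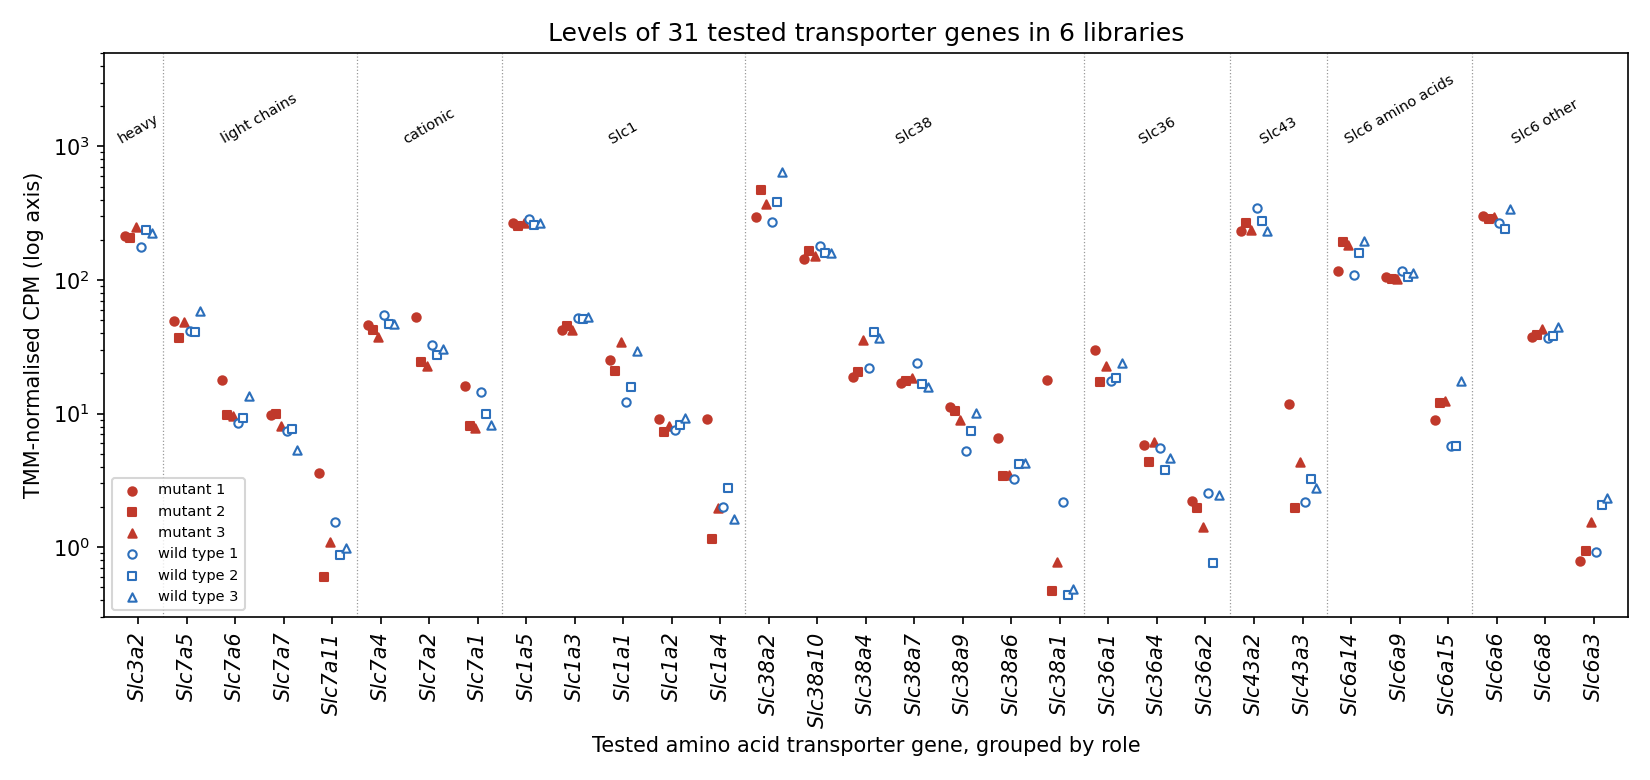
TMM-normalised CPM (log axis) of the 31 tested transporter genes, grouped by role along the horizontal axis; filled red symbols are the 3 mutant libraries and open blue symbols the 3 wild-type libraries. Slc38a2 is the most counted gene, mutant and wild-type symbols lie among each other for most genes, and the filled circle of mutant 1 stands above all others for Slc38a1, Slc1a4, Slc43a3 and Slc7a11.

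The comparison asked whether loss of Dlk1 in AT2 cells changed the expression of these transporters during repair. The low-count filter kept 31 of the 38 members for testing, and 7 (Slc3a1, Slc43a1, Slc6a19, Slc6a2, Slc6a4, Slc7a3 and Slc7a8) were too low. Log2 fold changes (mutant minus wild type) were positive for 16 of the 31 (51.1% of all tested genes) and negative for 15, with a median of 0.06 where that of all 12899 tested genes was 0.0048. Without mutant 1, 11 were positive and 20 negative, with a median of -0.10, and 7 members changed sign. In edgeR's quasi-likelihood test with p-values adjusted by Benjamini-Hochberg across every tested gene, 0 members passed a 5% threshold, as did 0 genes in all (0.0%). At an unadjusted p under 0.05 there was 1 member, Slc1a3 (background 6.58%), which was among the lower genes (2.89%), and 0 were among the higher genes (3.69%). DESeq2 called 0 members, with 1 at an unadjusted p under 0.05 (background 6.21%), and 46 genes in all (0.306%), and limma-voom called 0 members, with 3 at an unadjusted p under 0.05 where the background was 10.0% (4.76% higher and 5.24% lower). With the replicate number as a block in edgeR, 0 members passed and 4 (Slc1a1, Slc1a3, Slc7a4 and Slc7a7) were at an unadjusted p under 0.05, where the background was 6.72%. The mutant and wild-type libraries did not overlap for 3 of the 31, Slc1a3 and Slc7a4 on the lower and Slc7a7 on the higher side. Over all tested genes, 11.7% did not overlap (5.23% higher and 6.43% lower), so this share was near the background.

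How closely a change could be bounded differed between members. The 95% interval lay within a 1.5-fold change in either direction for 12 of the 31, including Slc1a5, Slc3a2, Slc6a6, Slc6a8, Slc6a9 and Slc38a10. The median half-width over all 31 was 0.60 on the log2 scale, against 0.35 over all tested genes. The highest wild-type library exceeded the lowest 1.48-fold in the median member, against 1.24-fold in the median tested gene. At high counts the same held for 5 of 8 members. Among the 1873 tested genes with a mean of at least 100 CPM, the median ratio of the highest to the lowest wild-type library was 1.15. The 8 members in that class had a median of 1.38 and ran from 1.11 for Slc6a9 and Slc1a5 to 2.36 for Slc38a2.

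**Figure D2:**
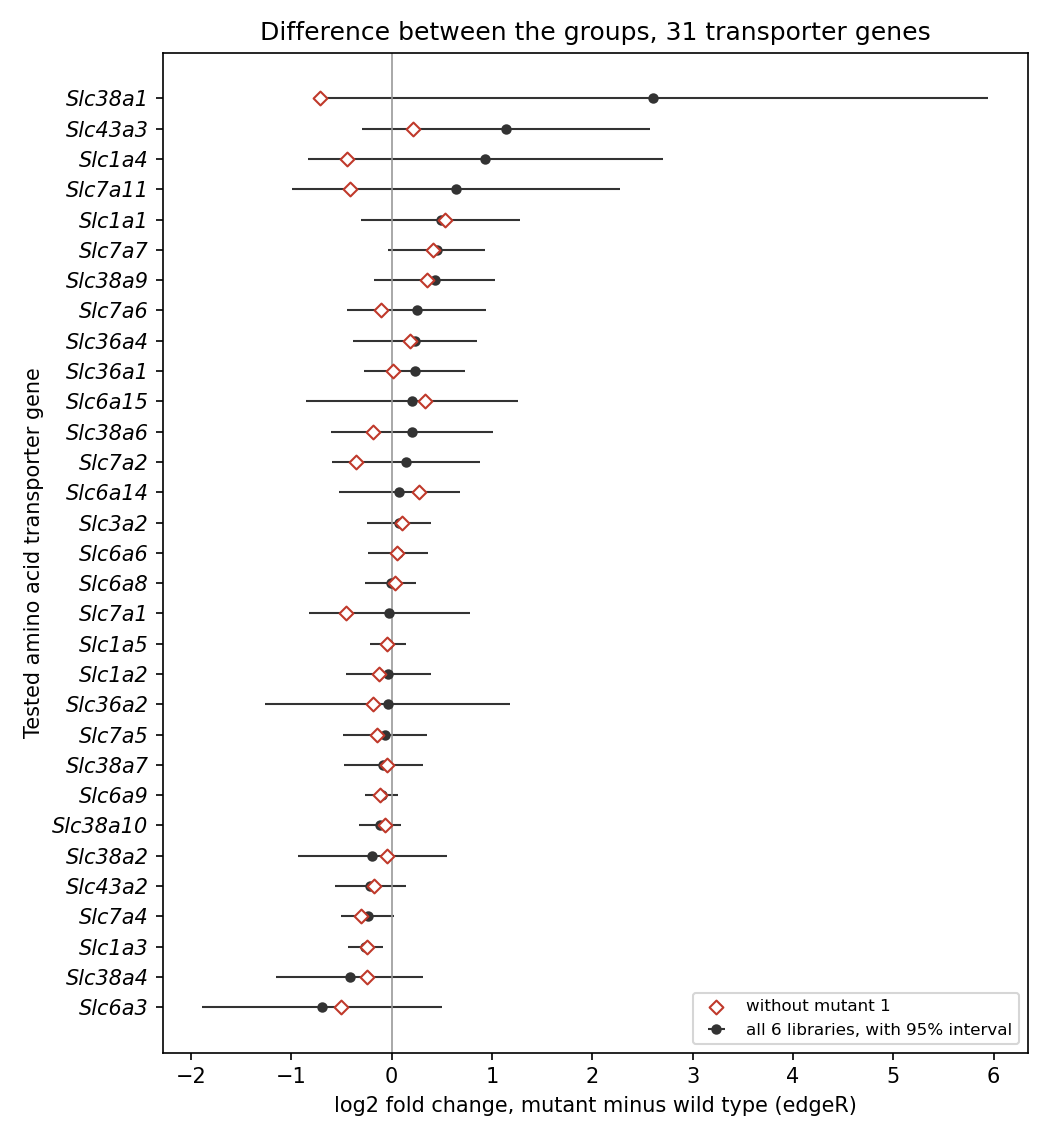
Log2 fold change of the 31 tested transporter genes (horizontal axis, mutant minus wild type, edgeR), with filled points and 95% intervals for all 6 libraries and open diamonds for the fit without mutant 1. Every interval but that of Slc1a3 spans 0, and the values farthest to the right, of Slc38a1, Slc43a3, Slc1a4 and Slc7a11, move to between -0.72 and 0.22 without mutant 1.

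The heavy chain and its light chains were taken first. Slc3a2, which encodes the CD98 heavy chain, stood at 213.5, 206.4 and 249.6 CPM in mutants 1, 2 and 3 and at 175.3, 238.2 and 222.9 CPM in wild types 1, 2 and 3. The groups overlapped, with wild type 1 lowest, and the log2 fold change was 0.07 ± 0.13 (SE). Slc7a5, the light chain of LAT1, stood at 49.5, 36.5 and 48.2 CPM in the mutant and 41.5, 40.7 and 58.3 CPM in the wild-type libraries. Its log2 fold change of -0.07 had a 95% interval of -0.49 to 0.35. The second heavy chain gene, Slc3a1, had 0 to 10 counts per library and shares sequence with Prepl, a neighbour that overlaps it and had 6296 counts in sum against its 33.

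Slc7a7 and Slc7a6 encode light chains that trade arginine and lysine for neutral amino acids, and inherited loss of SLC7A7 in humans causes lysinuric protein intolerance, a disease that can involve alveolar proteinosis. Slc7a7 stood at 9.73, 10.01 and 8.11 CPM in the mutant libraries and at 7.40, 7.61 and 5.38 CPM in the wild-type libraries. Each mutant library was above each wild-type library, by a small margin between mutant 3 and wild type 2. The log2 fold change was 0.45 ± 0.20 (SE; 95% interval -0.03 to 0.93; edgeR adjusted p = 0.737), and 0.42 without mutant 1. Slc7a7 overlaps Oxa1l in the RefSeq annotation, which had 7279 counts in sum against 1267 for Slc7a7, and how reads from overlapping genes were counted is not stated in the labels used here. Slc7a6 averaged 12.4 ± 4.62 against 10.4 ± 2.64 CPM (SD, n = 3 each), with 17.7 CPM in mutant 1 and a log2 fold change that turned from 0.25 to -0.10 without it.

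Slc7a11, which encodes xCT, the cystine-importing light chain that feeds glutathione synthesis, was scarce. It had 14 to 34 counts in every library but mutant 1, which had 118, and stood at 3.60 CPM there against 0.60 to 1.55 CPM elsewhere. The fitted log2 difference was 0.64 (95% interval -0.99 to 2.27) with all libraries and -0.41 without mutant 1. Slc7a8, the LAT2 light chain, had 76 counts in mutant 1 and 1 to 20 in the others, too few to be tested. Both genes thus followed mutant 1, whose markers of leukocytes, endothelial, club and fibroblast cells were also the highest. The part of those cells in these values was not tested.

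Cationic transporters and their relatives followed. Slc7a2 encodes CAT2, an arginine carrier linked to nitric oxide and polyamine synthesis, and Slc7a1 encodes CAT1, the housekeeping arginine carrier. Slc7a2 stood at 52.5, 24.2 and 22.8 CPM in mutants 1, 2 and 3 and at 32.4, 27.6 and 30.4 CPM in wild types 1, 2 and 3. Mutant 1 was the highest library and the other mutants were the lowest, so the sign depended on that library. The log2 fold change was 0.14 (-0.60 to 0.88) with all libraries and -0.36 (-0.63 to -0.09) without mutant 1, where the edgeR adjusted p was 0.819. Slc7a1 stood at 16.2, 8.09 and 7.83 CPM in the mutant and 14.4, 9.97 and 8.27 CPM in the wild-type libraries, with log2 fold changes of -0.02 with all libraries and -0.45 without mutant 1.

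Slc7a4, a family member with no settled transport activity, stood at 46.03, 42.5 and 37.3 CPM in the mutant and 54.8, 46.7 and 46.8 CPM in the wild-type libraries. Every mutant library was below every wild-type library, by under 1 CPM between mutant 1 and wild type 2. The log2 fold change was -0.24 ± 0.11 (SE; edgeR adjusted p = 0.739), and -0.31 without mutant 1.

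Among the Slc1 genes, Slc1a3 had the smallest p of all members. It encodes GLAST, a glutamate transporter best known from glia, and the sorted cells expressed it evenly. Slc1a3 stood at 42.5, 45.5 and 41.9 CPM in the mutant libraries and at 51.6, 51.3 and 52.9 CPM in the wild-type libraries. The groups did not overlap, and within each group the libraries were close together. The log2 fold change was -0.26 ± 0.07 (SE; 95% interval -0.44 to -0.09) with an unadjusted p of 0.00959, an edgeR adjusted p of 0.737 and a DESeq2 adjusted p of 0.385. It was -0.25 without mutant 1.

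Slc1a1, which encodes EAAT3, a carrier of glutamate that also takes up cysteine, varied far more. It stood at 25.3, 20.8 and 34.5 CPM in the mutant libraries and at 12.2, 15.9 and 29.4 CPM in the wild-type libraries, so wild type 3 lay above mutants 1 and 2, while each mutant was above the wild type of the same number. The log2 fold change was 0.49 (-0.30 to 1.28), and 0.53 without mutant 1. With the replicate number as a block it was 0.55, with an unadjusted p of 0.0217 in place of 0.188 and an edgeR adjusted p of 0.699. Slc1a5 was the steadiest of the abundant members, at 266.7, 254.6 and 266.5 CPM against 284.6, 256.1 and 264.9 CPM. Its log2 fold change of -0.03 had a 95% interval of -0.21 to 0.15. Slc1a4, the ASCT1 carrier of serine, alanine and cysteine, was at 9.08 CPM in mutant 1, where the other libraries ranged from 1.16 to 2.76 CPM, and its log2 fold change turned from 0.93 to -0.44 without mutant 1.

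Slc38a2 was the most counted transporter gene. It stood at 297.9, 470.3 and 370.3 CPM in mutants 1, 2 and 3 and at 272.9, 381.3 and 645.2 CPM in wild types 1, 2 and 3. The 2 extremes of the 6 libraries were both wild type. Its log2 fold change of -0.19 therefore carried an interval of -0.93 to 0.55. Slc38a10, a widely expressed relative, was even, at 153.9 ± 11.1 against 166.4 ± 11.8 CPM (SD, n = 3 each). Slc38a9, a lysosomal protein that senses arginine for mTORC1, stood at 11.2, 10.5 and 8.89 CPM in the mutant and 5.26, 7.41 and 10.1 CPM in the wild-type libraries, with only wild type 3 inside the mutant range and a log2 fold change of 0.43 (-0.17 to 1.03). Slc38a7, an exporter of glutamine from lysosomes, had a log2 fold change of -0.08 (-0.48 to 0.31). Slc36a1, a proton-coupled lysosomal carrier, had 0.23 (-0.28 to 0.74) with all libraries and 0.01 without mutant 1. Slc38a4, which carries small neutral amino acids and is imprinted in mice, stood at 18.6, 20.5 and 35.7 CPM against 21.98, 41.0 and 36.9 CPM, with overlap and a log2 fold change of -0.42 (-1.15 to 0.31). The remaining tested members, Slc1a2, Slc36a2, Slc36a4 and Slc38a6, were all under 10 CPM in every library, with log2 fold changes from -0.04 to 0.23. Of these, Slc38a6 turned from 0.20 to -0.18 without mutant 1.

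Slc38a1, the gene of SNAT1, was the member with the largest fitted difference. Mutant 1 held 581 of its counts and each other library 11 to 48, or 17.7 CPM against 0.44 to 2.19 CPM. Mutant 1 exceeded every other library 5-fold or more for this 1 tested member, a state found in 3.47% of tested genes and in 8.45% of genes with 10 or more summed counts. Its log2 fold change of 2.61 (-0.73 to 5.95) became -0.72 without mutant 1, and among the wild types it was highest in wild type 1. Mutant 1 was also highest, by a smaller factor, for Slc43a3 (11.7 CPM against 1.97 to 4.37 CPM), which carries purine nucleobases. The log2 fold change of Slc43a3 was 1.14 (-0.30 to 2.58) with all libraries and 0.22 without mutant 1. In all, mutant 1 was the highest library for 10 of the 31 tested members, where the background was 23.9%.

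Among the members too low to test, Slc6a2, the noradrenaline transporter gene, had 91 counts in mutant 1 and 0 to 6 in the others, and Slc6a4, the serotonin transporter gene, had 82 and 0 to 12. Both are known from lung endothelium, whose marker sum was also highest in mutant 1; its part in these counts was not tested. Slc43a1, which encodes the LAT3 carrier of large neutral amino acids, had 13 counts in mutant 1, 2 and 3 in the other mutants, and at most 1 in any wild-type library. Slc6a19 and Slc7a3 had 24 and 29 counts in mutant 1 and at most 5 elsewhere.

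The Slc43 and Slc6 families held the remaining abundant members. Slc43a2 stood at 234.3, 267.4 and 236.0 CPM in the mutant and 348.2, 274.8 and 232.9 CPM in the wild-type libraries, with wild type 1 highest and wild type 3 lowest. The log2 fold change was -0.21 (-0.57 to 0.14). Slc6a14 stood at 117.2, 191.2 and 182.9 CPM against 108.4, 159.7 and 197.2 CPM, where mutant 1 and wild type 1 were low and the other 4 libraries high. Its log2 fold change was 0.08 (-0.52 to 0.68), and 0.27 (-0.22 to 0.76) without mutant 1.

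Slc6a9 was even, at 103.6 ± 2.11 against 111.0 ± 5.99 CPM (SD, n = 3 each), and so was the creatine transporter gene Slc6a8, at 39.6 ± 2.93 against 39.8 ± 4.37 CPM, whose log2 fold change was -0.01 with all libraries and 0.03 without mutant 1. Slc6a6, at 294.4 ± 5.97 against 281.7 ± 50.0 CPM, was even among the mutant libraries and ranged from 241.8 to 337.8 CPM among the wild types. Slc6a14 and Slc6a8 lie on the X chromosome, and wild type 2 was the 1 library with a high level of Xist, the RNA that coats an inactive X (184.6 CPM against at most 2.93 CPM). Ddx3y, a gene of the Y chromosome, was at 2.88 CPM in wild type 2 against 49.8 to 78.2 CPM in the others. These sex-linked transcripts were thus not balanced between the groups, and their bearing on the group differences was not tested. For Slc6a14 and Slc6a8, wild type 2 lay between the other wild types. Slc6a15, a carrier of proline and branched-chain amino acids, stood at 9.02, 12.1 and 12.3 CPM against 5.76, 5.69 and 17.6 CPM. Wild type 3 was 3.09-fold above wild type 2 in this gene. Slc6a3, the dopamine transporter gene, had 20 to 57 counts per library and a log2 fold change of -0.69 (-1.89 to 0.50).

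**Figure D3:**
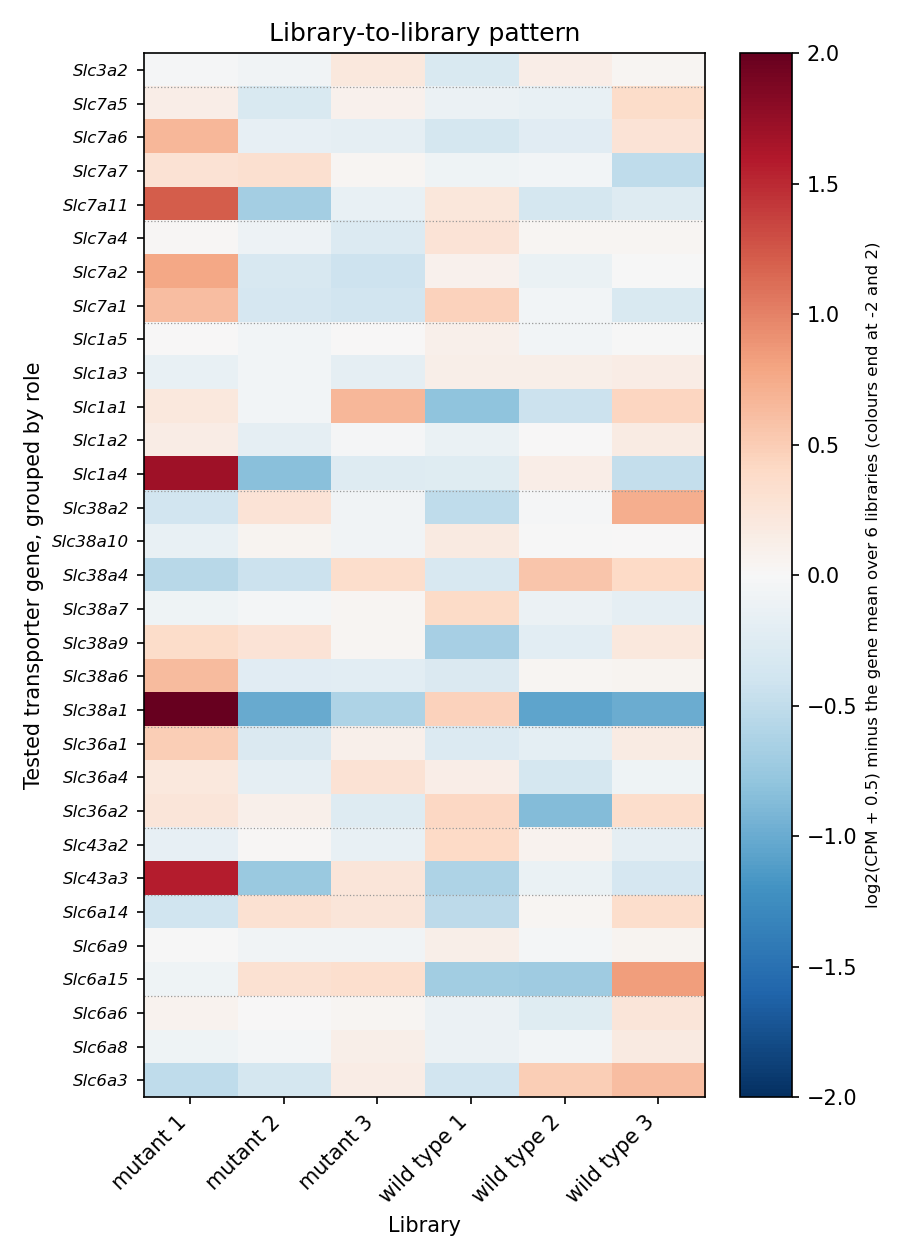
Heat map of log2(CPM + 0.5) minus the gene's mean over the 6 libraries (colour, ends at -2 and 2), with the 31 tested transporter genes in rows by role and the libraries in columns. Mutant 1 is dark red for Slc38a1, Slc1a4 and Slc43a3, and Slc38a2, Slc6a14, Slc6a15 and Slc1a1 are blue in wild type 1 and red in wild type 3.

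Several transporters differed between wild-type libraries more than between the groups. Slc38a2, Slc6a14 and Slc1a1 were each lowest of the 6 libraries in wild type 1 and higher in wild type 2 than in wild type 1, with wild type 3 the highest wild type. The ratio of wild type 3 to wild type 1 was 2.36-fold for Slc38a2, 1.82-fold for Slc6a14 and 2.42-fold for Slc1a1. Wild type 1 was the lowest library for 8 of the 31 tested members (background 19.1%) and the highest for 7 (21.5%), Slc43a2 among the latter. Wild type 3 was the highest for 9, where the background was 14.0%. These libraries have the same labels, and what set them apart was not tested.

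The genes that ATF4 is known to switch on were compared as the pathway nearest to the transporters. Of 26 such genes, 24 were tested, and 0 passed the threshold in edgeR (2 at an unadjusted p under 0.05, both among the lower genes, where the background was 2.89%). Their log2 fold changes were negative in 21 of 24, where 48.9% of all tested genes were negative, and their median was -0.16. Nupr1, a stress-response gene, stood at 99.6, 93.7 and 92.03 CPM in the mutant libraries and at 198.7, 127.3 and 104.7 CPM in the wild-type libraries. Asns, which encodes the enzyme that makes asparagine, stood at 8.90, 9.28 and 7.30 CPM against 14.99, 12.2 and 9.20 CPM. Trib3, a pseudokinase that feeds back on ATF4, stood at 11.9, 11.9 and 7.90 CPM against 17.0, 14.7 and 12.3 CPM, and Atf5 at 18.4, 10.4 and 16.8 CPM against 40.1, 21.2 and 17.02 CPM. In all of these wild type 1 was the highest library and wild type 3 the lowest wild type. The groups did not overlap for Nupr1 and Trib3, and they overlapped for Asns and Atf5. The log2 fold changes were -0.59 for Nupr1, -0.51 for Asns, -0.47 for Trib3 and -0.77 for Atf5, each with an edgeR adjusted p of 0.737. Without wild type 1, 14 of the 24 genes were negative and 10 positive, and without any other single library 18 to 22 were negative. With the replicate number as a block in edgeR, 23 of the 24 were negative and 0 passed the threshold. At an unadjusted p under 0.05 there were 4 in that fit, where the background was 6.72%. Asns and Atf5, whose groups overlapped, were lower in the mutant in each of the 3 same-numbered pairs.

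Slc38a2 is itself a classical target of ATF4, and its order across the wild types was the reverse of that of Asns, Nupr1, Trib3 and Atf5. The response list was split in this respect. Ddit3, Sesn2 and Ppp1r15a rose from wild type 1 to wild type 3 as Slc38a2 did. Wild type 1 was the highest library for 12 of the 24 tested genes of the list and wild type 3 for 5. Within each group, the order of Slc38a2 was also that of Atf4 itself. Across the 6 libraries the lowest differed, with wild type 1 for Slc38a2 and mutant 1 for Atf4. Atf4 stood at 221.2, 365.6 and 312.6 CPM in mutants 1, 2 and 3 and at 265.1, 339.0 and 520.7 CPM in wild types 1, 2 and 3. Both transcripts had mutant 1 as the lowest mutant and mutant 2 as the highest, and wild type 3 as the highest library. ATF4 is controlled largely at translation, so its transcript does not measure its activity.

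**Figure D4:**
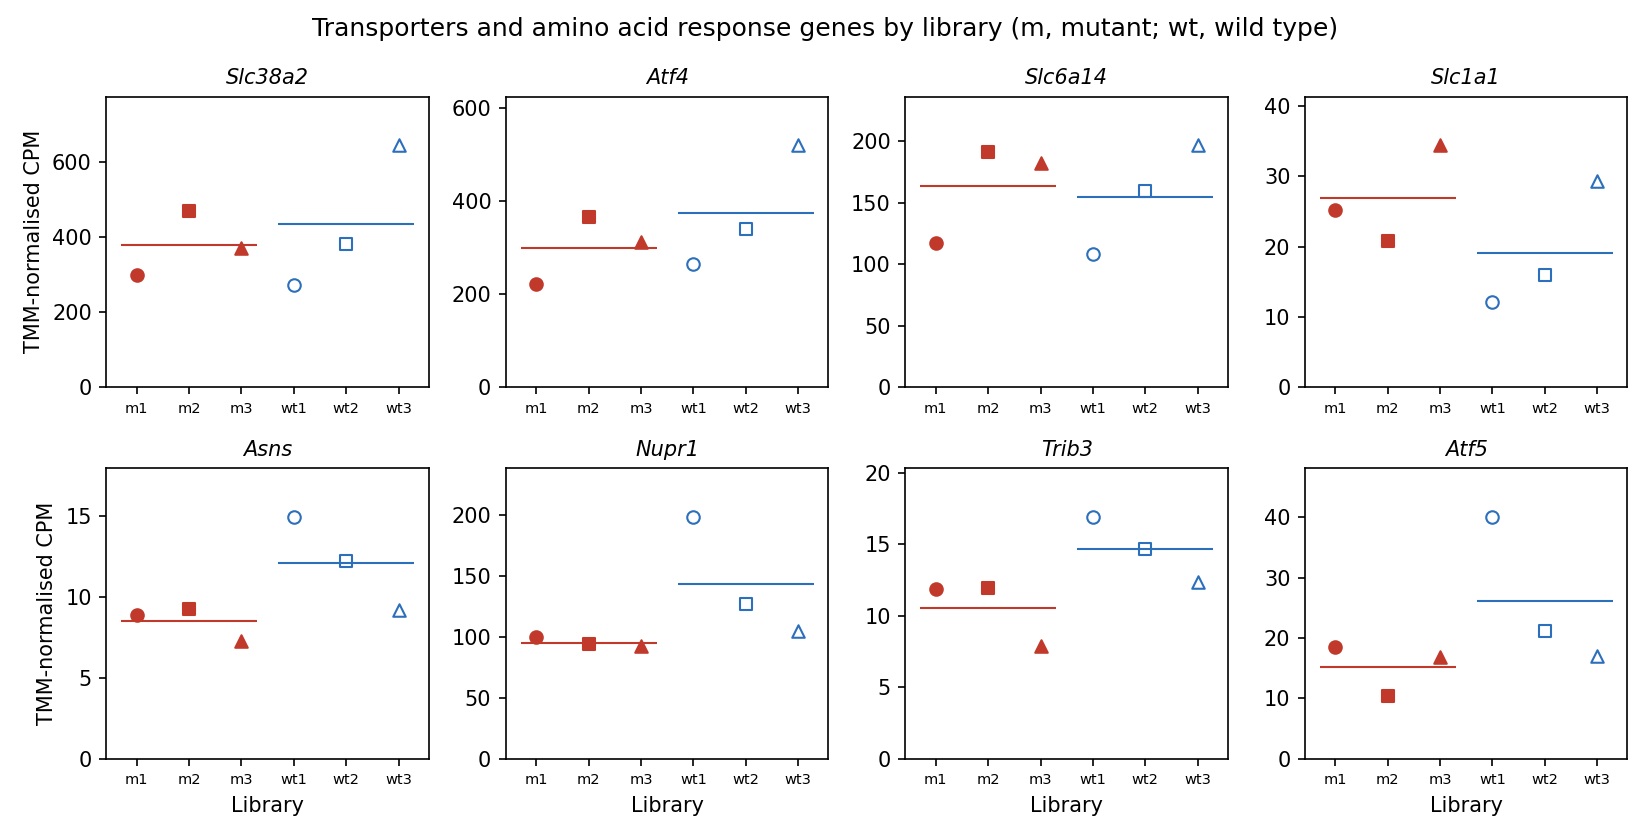
TMM-normalised CPM (vertical axes from 0) of the transporters Slc38a2, Slc6a14 and Slc1a1, of Atf4 and of the response genes Asns, Nupr1, Trib3 and Atf5 in each library (m, mutant; wt, wild type; lines are group means). Wild type 1 is the lowest wild type in the upper 4 panels and the highest library in the lower 4.

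The sequence that ATF4 and its C/EBP partners bind, the composite element TGATGNAA (N is any base), was looked for on both strands of RefSeq promoters (GRCm38.p6, from 250 bases before to 50 after each start). It was found in 3.97% of 32851 promoters. Of the 38 members, 26 matched the promoter table, with 37 promoters, and 4 of these (10.8%), of Slc7a11, Slc7a7 and Slc1a4, held it. The Slc7a7 promoters with a match overlap, and a shared copy of the element was counted in each. Of the 26 response genes, 23 matched, and 8 of their 26 promoters (30.8%) held it. Genes not matched to a promoter, and sequence outside this window, were not searched. A gene without a match here, Slc38a2 among them, may therefore hold the element elsewhere. The upstream parts of 3 promoters are shown because Slc7a11 held a facing pair, Asns is a reference gene of the response, and Slc7a7 was the 1 tested member with all mutants above all wild types. Capitals mark the element on either strand, and each run is written 5′ to 3′ on the strand of the gene and ends at the base before its start.
Slc7a11 (chr3:50443614-50443733, minus strand): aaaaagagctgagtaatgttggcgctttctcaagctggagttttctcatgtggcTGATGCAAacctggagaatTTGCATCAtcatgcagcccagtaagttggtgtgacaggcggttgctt
Asns (chr6:7693210-7693329, minus strand): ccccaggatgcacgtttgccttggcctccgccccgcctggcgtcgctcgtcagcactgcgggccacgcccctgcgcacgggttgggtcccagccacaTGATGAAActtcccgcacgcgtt
Slc7a7 (chr14:54417945-54418095, minus strand): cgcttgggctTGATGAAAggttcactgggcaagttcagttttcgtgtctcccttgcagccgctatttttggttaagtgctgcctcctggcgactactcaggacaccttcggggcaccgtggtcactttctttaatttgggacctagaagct

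In Slc7a11 the elements began 66 and 47 bases before the start and lay on opposite strands, and in Asns the element began 23 bases before it. In Slc7a7 the first began 141 bases before the start shown, and another, TGATGCAA, began at the last base shown and ran past the start. The 3 genes shown did not all share a library order. Outside mutant 1, Slc7a11 was highest in wild type 1 (1.55 CPM, from 34 counts against 31 in mutant 3), as was Asns. Slc7a7 was lower in wild type 1 than in each mutant. Of the other tested genes with the element, Chac1, Nupr1, Trib3 and Vldlr were also highest in wild type 1 outside mutant 1. Slc1a4, Atf3 and Pycr1 were not. Whether the element bears on these orders was not tested. A match of letters is a description, and binding was not measured.

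Further genes of amino acid metabolism gave no call either. Of 20 cytosolic tRNA synthetases, 11 were positive and 9 negative in log2 fold change, with a median of 0.01, and 0 passed (0 at an unadjusted p under 0.05). Wars, which charges tryptophan and responds to interferon, had -0.36 (-0.74 to 0.02) and Lars, which charges leucine, had 0.18 (-0.03 to 0.39). Of 34 genes of mTORC1 amino acid sensing, 14 were positive and 20 negative, and 0 passed (1 at an unadjusted p under 0.05, background 6.58%). That gene was Rragd, a Rag GTPase that places mTORC1 on the lysosome, at 61.4, 78.3 and 59.6 CPM in the mutant and 86.1, 92.1 and 77.6 CPM in the wild-type libraries, which overlapped by 1 library. Of 12 eIF2 kinases and regulators, 10 were positive with a median of 0.02, and 0 passed, with none at an unadjusted p under 0.05. Without mutant 1, 6 of these 12 were positive.

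Of 20 genes of glutathione and cysteine metabolism 17 were tested, 13 of them negative, where 48.9% of all tested genes were negative. In edgeR 0 passed (3 at an unadjusted p under 0.05, all among the lower genes, where the background was 2.89%). The groups did not overlap for 4 of the 17 (23.5%), against 11.7% of all tested genes. Anpep, which encodes a surface aminopeptidase that frees amino acids from peptides, stood at 413.7, 553.0 and 483.1 CPM in the mutant and 688.1, 650.3 and 606.5 CPM in the wild-type libraries. Its groups did not overlap, and the log2 fold change was -0.42 ± 0.12 (SE) with an edgeR adjusted p of 0.737 and a DESeq2 adjusted p of 0.106. Gss, the glutathione synthetase gene, averaged 20.8 ± 1.11 against 24.5 ± 0.488 CPM (SD, n = 3 each), and Gclm, the modifier subunit of the first step, 16.3 ± 1.36 against 13.7 ± 0.093 CPM, in opposite directions and without overlap in either. Ggt5, a gamma-glutamyl transferase gene, averaged 40.7 ± 2.11 against 61.3 ± 19.4 CPM, also without overlap and with 83.1 CPM in wild type 1. Of 20 other amino acid and peptide transporters 17 were tested, 10 of them positive, with 0 passing and 0 at an unadjusted p under 0.05. The widest of these, Slc15a3, a lysosomal peptide carrier of immune cells, had 10.3 CPM in mutant 1, with 0.20 to 1.51 CPM in the rest, and its log2 fold change was 2.45 with all libraries and -0.03 without mutant 1.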

How the data were processed

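RNA from 6 libraries (3 mutant, 3 wild type) was measured as whole-number read counts per gene symbol, a table the authors deposited. Per the submitters' processing notes, CASAVA and DESeq2 were used and the genome build was mm9; no aligner or counter is named in the sources used here, and the labels name more than 1 sequencer. No column lacked a sample and no row lacked a gene. Genes were filtered with filterByExpr, scaled by TMM and tested mutant against wild type with edgeR 4.0.16 (quasi-likelihood F-test, R 4.3.3, Benjamini-Hochberg adjustment over 12899 genes, threshold 0.05), after tests on simulated data. DESeq2 1.42.0, limma-voom (limma 3.58.1), other scalings and filters, a replicate block and the removal of each library were alternatives.

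Levels between genes used CPM per kilobase of exon (GENCODE M21, GRCm38), and promoters came from RefSeq (GRCm38.p6), another build than that of the counts. Of 133 genes in 6 lists, 8 matched through an older symbol and 1 did not match. The members and lists were chosen with earlier results of these data known. Members named with values were, by rule, 21 chosen by name, the 10 with the highest mean CPM, any past the threshold, the 5 of smallest p on either side, and any of at least 1 CPM with 1 library 5-fold apart; of each list, up to 4 genes with the smallest p were named. Atf4, Ddit3, Sesn2, Ppp1r15a and members outside the rule were named after their values were seen. Chac1, Vldlr, Atf3 and Pycr1, also outside the rule, were named as tested genes with a promoter match. Same-numbered mutant and wild-type libraries deviated together (r of 0.31, 0.21 and 0.17 across genes), and those of unlike number had r of -0.25 to 0.07. The labels name no pairing. The main test was therefore unpaired, and the replicate number was a block only as an alternative. Replicates of a group differed by more than sampling noise (chi-square per degree of freedom 18.4 to 76.7). Totals of 22511461 to 30695994 counts put the floor of 3 counts at 0.0977 to 0.133 CPM; this covers counting error only.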

Additional observations from a re-analysis of the deposited data

How the results depend on the processing

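Across 16 alternatives, 0 transporter or list genes passed the threshold, and of 766 log2 fold changes over 48 named genes 721 kept their sign. DESeq2 called 46 genes in all, and 22 without mutant 1. In edgeR, which called 0, leaving out 1 library in turn gave 0 to 1 (1 without wild type 3). The transporters' median ran from -0.10 (without mutant 1) to 0.17 (without wild type 3) when 1 library was left out (-0.04 without wild type 2). It was -0.12 without mutant 1 and wild type 2 together and -0.10 in DESeq2 without mutant 1. With the replicate block it was 0.08, with 0 members and 0 genes called, so pairing changed no call. Without mutant 1 and wild type 2 together, the log2 fold change turned to -0.20 for Slc1a4, -0.037 for Slc36a1, -1.08 for Slc38a1, -0.041 for Slc6a6, 0.0087 for Slc6a8, -0.56 for Slc7a11, -0.41 for Slc7a2, -0.17 for Slc7a6 and -0.47 for Slc15a3. In DESeq2 without mutant 1 it turned to -0.44 for Slc1a4, -0.72 for Slc38a1, 0.037 for Slc6a8, -0.41 for Slc7a11, -0.36 for Slc7a2, -0.10 for Slc7a6 and -0.040 for Slc15a3. In limma-voom it turned to -0.017 for Slc1a4, 0.0013 for Slc1a5, 0.068 for Slc6a8, -0.16 for Slc7a2 and 0.038 for Slc7a5, and with upper-quartile scaling to 0.0014 for Slc6a8. With 1 library left out, signs turned within -0.44 to 1.37 for Slc1a4, -0.069 to 0.011 for Slc1a5, -0.72 to 3.75 for Slc38a1, -0.43 to 0.21 for Slc38a2, -0.048 to 0.16 for Slc3a2, -0.12 to 0.29 for Slc6a14, -0.039 to 0.21 for Slc6a6, -0.070 to 0.082 for Slc6a8, -0.45 to 0.23 for Slc7a1, -0.41 to 1.04 for Slc7a11, -0.36 to 0.35 for Slc7a2, -0.16 to 0.12 for Slc7a5, -0.10 to 0.47 for Slc7a6, -0.032 to 3.57 for Slc15a3 and -0.87 to 0.11 for Slc25a29. The causes were not tested. Depth limits members with few counts, such as Slc7a11, Slc6a3, Slc38a1 outside mutant 1 and the 7 untested members.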
